A study of Mus musculus with 6 samples.

Results

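The growth hormone, STAT5 and IGF axis was examined through 10 genes: Ghr, Stat5a, Stat5b, Cish, Socs2, Socs3, Igf1, Igfals, Igfbp1 and Igfbp2. They were taken by gene symbol from the deposited expression table and linked by identifier to the read counts, where all 10 were found among 47729 genes. The RNA came from livers of C57BL/6 mice that had all been fed 0.1% DDC (diethoxycarbonyl-dihydrocollidine, a chemical model of cholestatic liver injury) for 17 days. Control libraries (n = 3, genotype WT in the labels and shNC in the series design) were compared with libraries labelled ATOH8 knockdown (n = 3, shAtoh8 in the series design). The labels name hepatocyte as the cell type, yet the protocol describes RNA from whole frozen livers. No source used here gives the delivery of the knockdown or the age and sex of the mice. Nor does any say that replicates were separate animals, so the p-values cover the spread among these libraries alone, and that spread may be technical.

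Growth hormone from the pituitary binds its receptor on hepatocytes, and the receptor-bound kinase JAK2 then phosphorylates STAT5, which enters the nucleus and switches on liver genes. Among these are the genes for insulin-like growth factor 1, which carries much of the hormone's effect on growth, for the acid-labile subunit that holds IGF-1 in a long-lived serum complex, and for the inhibitors CIS and SOCS2, which damp the same receptor. The IGF binding proteins encoded by Igfbp1 and Igfbp2 are also made in liver, and Igfbp1 is known to be induced in fasting and held down by insulin.

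Values are given in the order of replicates 1, 2 and 3, as CPM, a gene's reads relative to all gene reads of its library after scaling by the trimmed mean of M-values, and, where genes are compared with each other, as the deposited FPKM, which is per transcript length. Each library held 31912058 to 37969644 reads in genes, and 3 reads correspond to 0.079 to 0.094 CPM. Control replicate 1 stood apart: the first principal component, with 48.2% of the variance, placed it at -96.0, against 46.4 and 55.0 for the other controls and -10.01 to 10.4 for the knockdown libraries. Relative to the other controls its transcripts of low GC content were under-represented, with a median log2 difference of -1.56 in the quintile of tested genes lowest in GC and 0.67 in the highest quintile. The targeted gene Atoh8 had control values of 63.8, 16.8 and 16.4 CPM and knockdown values of 10.2, 9.83 and 5.64 CPM (log2 fold change -1.92, SE 0.58, edgeR adjusted p = 0.197). Its groups did not overlap. The size of this difference rests largely on control replicate 1: without it the log2 fold change of Atoh8 was -0.95 (SE 0.23, edgeR adjusted p = 0.0115). With all libraries DESeq2 gave Atoh8 an adjusted p of 0.0186. Among hepatocyte markers Alb stood at 77150 CPM or more in each library. The Kupffer cell and stellate cell lists summed to at least 239.6 and 188.2 CPM in each library. The 6 cholangiocyte markers summed to 18.45 to 28.85 CPM, and of these the keratins Krt19 and Krt7 stayed at or below 0.497 CPM. In such bulk RNA fewer cells of a type and less RNA per cell cannot be told apart.

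The sequences around the start sites of the members whose RefSeq window (GRCm38.p6) held a STAT5-type element or a forkhead-type insulin response core are shown first, since these are the elements through which the hormone and insulin are known to act. Letters run 5′ to 3′ on the gene's strand from 180 bases before the start site to 30 bases after it, and capitals mark the matches. The first motif was TTCNNNGAA, which reads the same on both strands, and the second CAAAACAA on either strand. They share no base in these windows.
Cish, chr9:107296479-107296688, plus strand: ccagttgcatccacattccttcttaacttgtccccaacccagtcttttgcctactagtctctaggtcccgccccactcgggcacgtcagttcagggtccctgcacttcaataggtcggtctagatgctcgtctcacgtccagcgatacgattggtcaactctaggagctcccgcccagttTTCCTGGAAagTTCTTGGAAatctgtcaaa
Igfals, chr17:24878051-24878260, plus strand: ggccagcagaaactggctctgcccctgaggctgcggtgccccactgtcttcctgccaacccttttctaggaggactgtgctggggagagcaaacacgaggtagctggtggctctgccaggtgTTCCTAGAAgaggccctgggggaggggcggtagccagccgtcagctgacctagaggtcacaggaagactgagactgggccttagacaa
Socs3, chr11:117969337-117969546, minus strand: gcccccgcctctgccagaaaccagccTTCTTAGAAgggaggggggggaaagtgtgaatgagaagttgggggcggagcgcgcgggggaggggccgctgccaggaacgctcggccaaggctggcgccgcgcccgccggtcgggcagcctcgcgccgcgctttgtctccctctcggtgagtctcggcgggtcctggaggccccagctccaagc
Igfbp1, chr11:7197607-7197816, plus strand: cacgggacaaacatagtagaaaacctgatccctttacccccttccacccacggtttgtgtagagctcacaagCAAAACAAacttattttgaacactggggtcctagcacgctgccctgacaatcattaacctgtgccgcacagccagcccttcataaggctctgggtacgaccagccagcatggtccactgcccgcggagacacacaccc

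RefSeq windows of 300 bases (250 before to 50 after a start site) were matched by symbol for 9 of the 10 members, 15 windows in all, with Socs2 unmatched. TTCNNNGAA was found in 4 of the 15 windows, those of Cish, Socs3 and a pair of Igfals start sites, and in 8.3% of all 32851 windows. Cish held the element in 2 copies, at 1 and 12 bases from the start site. CAAAACAA was found in the Igfbp1 window, 108 bases before the start site, and in 2.51% of all windows. A match is a description of these letters and no evidence of binding. The single Igf1 window held neither motif, which says only that these letters are not in that stretch.

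In the comparison of knockdown with control livers, none of the 10 members passed the edgeR quasi-likelihood test with Benjamini-Hochberg adjustment over all 13767 genes tested, where 0.864% of genes were called (0.741% higher and 0.123% lower). All 10 members passed the filter on low counts. Of these 7 had negative and 3 positive fold changes, and their median on the log2 scale was -0.65 against -0.05 over all tested genes. At an unadjusted p under 0.05 there were 5 members, Cish, Igfals, Igf1, Socs2 and Igfbp1, against 14.5% of all genes. The CPM of the groups did not overlap for the same 5 members, of which Igfbp1 was the higher one, and for 23.1% of all genes. DESeq2 called 3 members lower, Cish, Igf1 and Igfals (6.78% of all genes called, 4.62% higher and 2.16% lower), and limma-voom with quality weights called 7 (37.0% of all genes called, 18.7% higher and 18.2% lower). With no filter on low counts edgeR called Cish lower (1.08% of genes called, 0.148% lower). The voom weight of control replicate 1 was 0.0835, against 1.16 to 2.53 for the other libraries.

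Without control replicate 1 edgeR called 7 of the 10, with Cish, Igf1, Ghr, Igfals and Socs2 lower and Igfbp1 and Socs3 higher, where 32.6% of 14222 genes were called (16.5% higher and 16.1% lower). Differences of the knockdown libraries from control replicates 2 and 3 also moved with GC content, from a median log2 difference of -0.46 in the lowest quintile to 0.22 in the highest. With an offset for GC content and transcript length added to that fit, the same 7 members were called in the same directions (33.2% of all genes called, 12.0% higher and 21.2% lower). With the offset and all 6 libraries Cish, Igfals and Ghr were called lower (4.74% of all genes called, 2.30% higher and 2.43% lower).

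**Figure D1:**
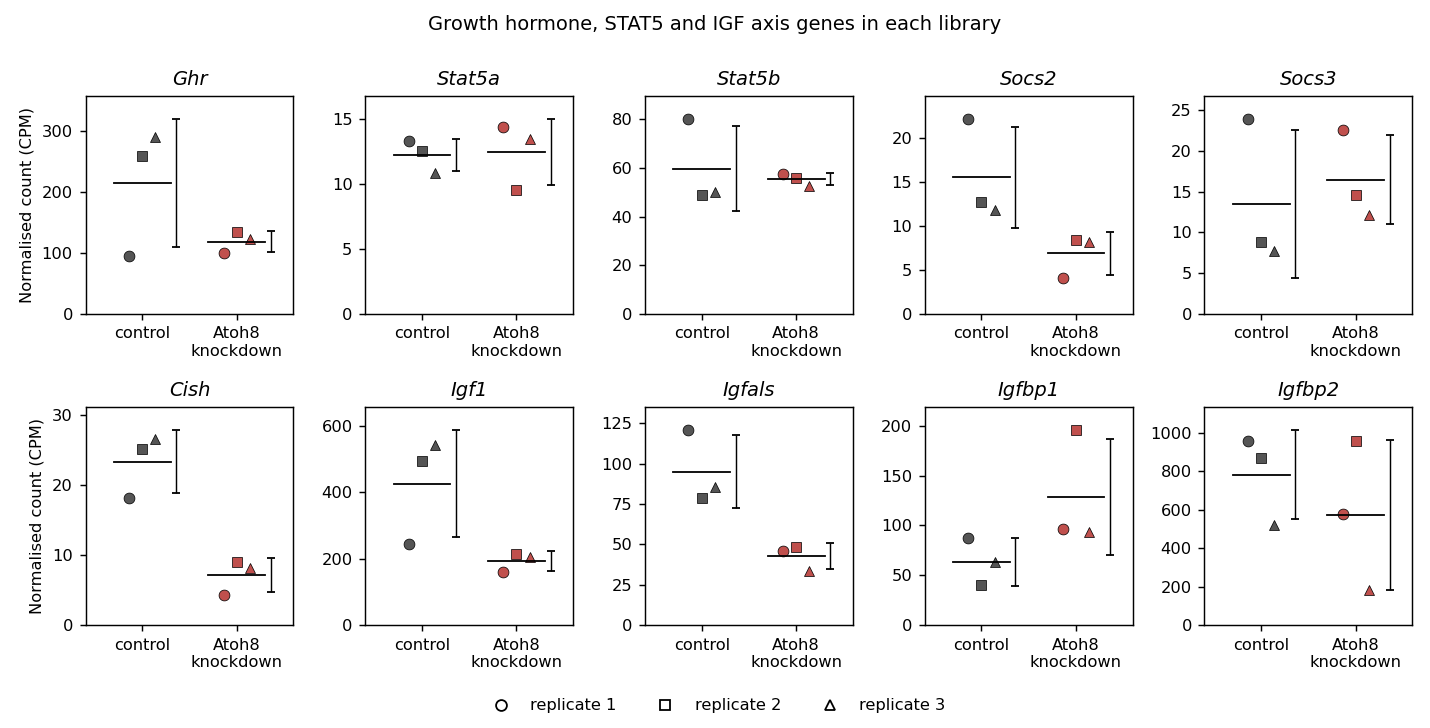
CPM of the 10 genes in each library (vertical axes from 0), with grey symbols for controls and red symbols for knockdown, symbol shape for the replicate number, lines for group means and bars for the SD (n = 3). Cish, Socs2, Igf1 and Igfals lie lower in every knockdown library than in any control, and Igfbp1 lies higher. Control replicate 1 (grey circle) is the control farthest from the others for Ghr, Igf1, Cish, Igfals, Socs2, Socs3 and Stat5b.

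Ghr encodes the growth hormone receptor (ENSMUSG00000055737, GRCm38 chromosome 15, 3317760 to 3583492, minus strand). It had control values of 94.9, 259 and 291 CPM and knockdown values of 99.9, 134 and 122 CPM. Control replicate 1 lay below all knockdown libraries, while the other controls lay well above them, so the groups overlapped. The log2 fold change was -0.86 (SE 0.40, edgeR adjusted p = 0.388). Without control replicate 1 it was -1.20 (SE 0.16, edgeR adjusted p = 0.000627), and with the GC and length offset as well -0.91 (SE 0.15, edgeR adjusted p = 0.00235). The longest Ghr transcript has a GC content of 40.9%, in the lowest quintile of tested genes, and the log2 difference of control replicate 1 from the other controls was -1.53, near the median of that quintile. The part of GC content in the Ghr values was not tested beyond the offset.

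The genes of the transcription factors that the receptor activates did not pass the test and had fold changes near 0. Stat5b (ENSMUSG00000020919, chromosome 11, 100780731 to 100850724, minus strand), the main STAT5 of liver, had control values of 80.2, 48.9 and 50.3 CPM and knockdown values of 57.6, 55.8 and 52.8 CPM (log2 fold change -0.11, SE 0.24, edgeR adjusted p = 0.869). Control replicate 1 lay above all other libraries, which were close together. Its neighbour Stat5a (ENSMUSG00000004043, chromosome 11, 100859351 to 100885169, plus strand) had control values of 13.3, 12.5 and 10.8 CPM and knockdown values of 14.3, 9.54 and 13.4 CPM (0.02, SE 0.23, edgeR adjusted p = 0.974). The direction of both fold changes turned between settings, from -0.32 to 0.24 for Stat5a and from -0.27 to 0.17 for Stat5b, with no call in any of 18 settings. Per transcript length Stat5b made up 74.7% ± 8.003 (SD, n = 3) of the summed FPKM of the pair in controls and 72.5% ± 4.85 in the knockdown livers, a difference of -2.20 percentage points (exact permutation test, two-sided, p = 0.7; adjusted over 3 ratios p = 0.7). The exact permutation test cannot go below p = 0.1 with 3 against 3. Without control replicate 1 the difference was 2.33 percentage points.

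Of the 3 inhibitors of the receptor, Cish and Socs2 had every knockdown value below every control value, and Socs3 did not. Cish encodes CIS, a STAT5 target that blocks STAT5 docking at the receptor (ENSMUSG00000032578, chromosome 9, 107296026 to 107302784, plus strand). Cish had control values of 18.2, 25.2 and 26.6 CPM and knockdown values of 4.31, 8.94 and 8.09 CPM, a mean of 23.3 ± 4.50 against 7.11 ± 2.46 CPM (SD, n = 3). The highest knockdown library lay below the lowest control by a wide margin. The log2 fold change of -1.71 (SE 0.33) had an edgeR adjusted p of 0.0685, the smallest of the members, and was -1.85 (edgeR adjusted p = 0.000793) without control replicate 1.

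Socs2, which encodes the inhibitor whose loss causes overgrowth in mice (ENSMUSG00000020027, chromosome 10, 95385362 to 95417180, minus strand), had control values of 22.1, 12.7 and 11.7 CPM and knockdown values of 4.05, 8.39 and 8.11 CPM. The groups did not overlap, and control replicate 1 was the highest. The log2 fold change was -1.18 (SE 0.38, edgeR adjusted p = 0.217) and shrank to -0.82 (SE 0.28, edgeR adjusted p = 0.0463) without control replicate 1. Knockdown replicate 1 had the lowest value of both Cish and Socs2.

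Socs3, which is induced mainly by cytokines of the interleukin 6 family (ENSMUSG00000053113, chromosome 11, 117966079 to 117970047, minus strand), did not share this pattern. It had control values of 23.9, 8.83 and 7.67 CPM and knockdown values of 22.6, 14.6 and 12.1 CPM, so that control replicate 1 lay above all others and the remaining controls below all knockdown libraries. The log2 fold change was 0.29 (SE 0.48, edgeR adjusted p = 0.824), and 1.00 (SE 0.25, edgeR adjusted p = 0.0127) without control replicate 1. The GC and length offset reduced the latter to 0.60 (SE 0.20, edgeR adjusted p = 0.0451). Socs3 has a GC content of 58.7%, in the highest quintile.

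**Figure D2:**
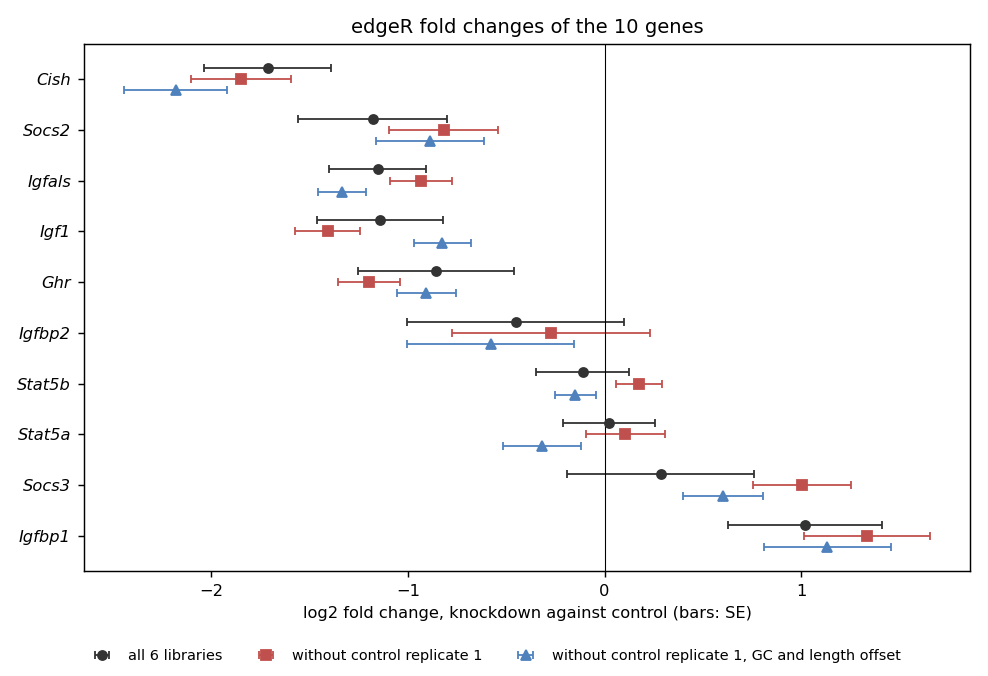
edgeR log2 fold changes of the 10 genes, knockdown against control, with SE bars, for all 6 libraries (black circles), without control replicate 1 (red squares) and without it and with the GC and length offset (blue triangles). Cish lies lowest, from -1.71 to -2.18, and Igfbp1 highest, from 1.02 to 1.33, whereas Stat5a and Stat5b lie between -0.32 and 0.17.

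Igf1, the hormone's main secreted product in liver (ENSMUSG00000020053, chromosome 10, 87858265 to 87937042, plus strand), was lower in all knockdown libraries. Igf1 had control values of 243, 494 and 542 CPM and knockdown values of 160, 214 and 206 CPM (log2 fold change -1.14, SE 0.32, edgeR adjusted p = 0.172). Control replicate 1 lay nearer to the knockdown libraries than to the other controls. Without it the log2 fold change was -1.41 (edgeR adjusted p = 0.000365), and with the offset as well -0.82 (edgeR adjusted p = 0.00312).

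The deposited FPKM of Igf1 ordered the libraries differently. It was 336, 314 and 316 in the controls, nearly level, and 172, 216 and 148 in the knockdown libraries, a mean of 322 ± 12.4 against 179 ± 34.4 FPKM (SD, n = 3). The FPKM divided by the CPM was 1.38 in control replicate 1, 0.635 and 0.582 in control replicates 2 and 3, and 1.08, 1.01 and 0.717 across the knockdown group, whereas for Igfals it stayed between 0.448 and 0.507. For Ghr it was 0.931 in control replicate 1, 0.501 and 0.517 in control replicates 2 and 3, and 0.561 to 0.770 across the knockdown group. Igf1 has 8 annotated transcripts of 510 to 7052 bases and a GC content of 37.96% in the longest. What makes the measures differ between libraries was not tested. In both measures the groups did not overlap.

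**Figure D3:**
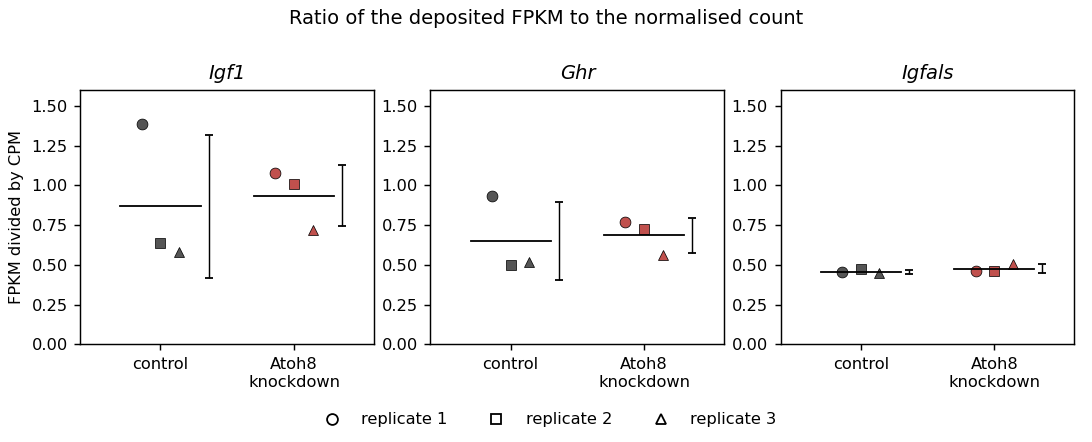
Deposited FPKM divided by CPM for Igf1, Ghr and Igfals in each library (vertical axes from 0; symbols, lines and SD bars as in the plot of CPM). Igf1 and Ghr have their highest ratio in control replicate 1, 1.38 and 0.931, while Igfals is level at 0.448 to 0.507.

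Igfals encodes the acid-labile subunit, which with IGFBP-3 or IGFBP-5 keeps IGF-1 in the circulation (ENSMUSG00000046070, chromosome 17, 24865997 to 24882010, plus strand). Igfals had control values of 121, 78.7 and 85.7 CPM and knockdown values of 46.0, 48.6 and 33.7 CPM, a mean of 95.1 ± 22.6 against 42.7 ± 7.97 CPM (SD, n = 3). The groups stood well apart. The log2 fold change was -1.15 (SE 0.24, edgeR adjusted p = 0.0887), and -0.93 (SE 0.16, edgeR adjusted p = 0.00201) without control replicate 1. Unlike Igf1 and Ghr, Igfals is GC-rich (58.9%), and control replicate 1 was its highest library.

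Igfbp1 encodes a soluble carrier that limits IGF access to its receptor (ENSMUSG00000020429, chromosome 11, 7197782 to 7202546, plus strand). It was the one member higher in every knockdown library, at 96.5, 196 and 93.5 CPM against 87.6, 39.7 and 63.2 CPM in control replicates 1 to 3. The margin between the groups was narrow, since control replicate 1 lay just below knockdown replicate 3. The log2 fold change was 1.02 (SE 0.39, edgeR adjusted p = 0.296), with 0.65 without knockdown replicate 2, the highest library, and 1.33 (edgeR adjusted p = 0.0112) without control replicate 1.

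Igfbp2 (ENSMUSG00000039323, chromosome 1, 72824503 to 72852474, plus strand), a carrier that growth hormone is known to hold down, varied widely within both groups. It had control values of 959, 868 and 519 CPM and knockdown values of 575, 959 and 180 CPM (log2 fold change -0.45, SE 0.55, edgeR adjusted p = 0.758). Knockdown replicate 2 matched the highest control and knockdown replicate 3 lay below all other libraries, so the groups overlapped widely. Without knockdown replicate 3 the log2 fold change was 0.01.

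Ordered by the deposited FPKM, in controls Igfbp2 was highest (594 ± 191, SD, n = 3), followed by Igf1 (322) and Ghr (123). The FPKM ranges of Igf1 and Ghr did not overlap with each other or with that of Igfbp2. Igfals (43.4) and Igfbp1 (43.3) followed with overlapping ranges and lay above Cish (16.7). After Cish came Stat5b (11.7), Socs2 (7.80), Socs3 (5.30) and Stat5a (3.73), each overlapping with its neighbour in this order. In the knockdown livers Igfbp2 (455) and Igf1 (179) overlapped, Igfbp1 (93.1) stood beside Ghr (81.1), and Igfals (20.2) followed. Cish (4.36) stood there at the level of Stat5a (4.18) and Socs2 (3.35), below Stat5b (10.8) and Socs3 (6.55). This order is that of the FPKM. From counts per transcript length Igf1 and Ghr lay closer together, with Igf1 slightly below Ghr in every knockdown library.

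Within each library the FPKM of Igfbp1 was 0.0889, 0.0381 and 0.106 times that of Igfbp2 in control replicates 1 to 3 and 0.156, 0.190 and 0.405 times in knockdown replicates 1 to 3. The groups did not overlap. The mean log2 ratio was -3.81 ± 0.79 in controls and -2.13 ± 0.73 in knockdown livers (SD, n = 3), a difference of 1.69 (exact permutation test, two-sided, p = 0.1, the smallest that 3 against 3 allow; adjusted over 3 ratios p = 0.3). Of the summed FPKM of Igfbp1 to Igfbp7, Igfbp1 took 3.63%, 2.11% and 3.89% in control livers, against 6.42%, 9.48% and 9.85% after knockdown (exact permutation test, two-sided, p = 0.1; adjusted over 7 shares p = 0.467). Igfbp4 took 50.1% ± 8.88 and 48.4% ± 10.4 and Igfbp2 44.3% ± 9.90 and 38.5% ± 13.0 (SD, n = 3), with overlapping groups for both. Igfbp3, the main carrier of IGF-1 in serum, took 0.131% to 0.362% in the 6 libraries.

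**Figure D4:**
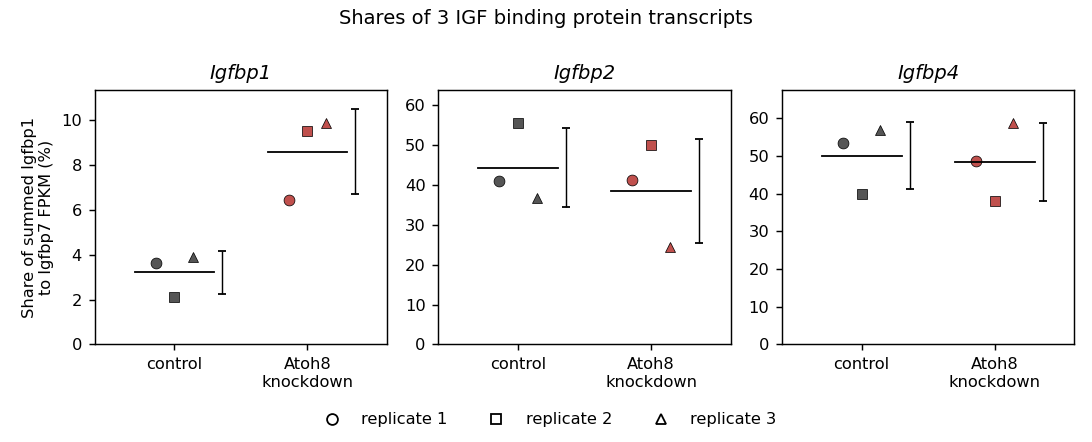
Share of the summed FPKM of Igfbp1 to Igfbp7 taken by Igfbp1, Igfbp2 and Igfbp4 in each library (percent, vertical axes from 0; symbols, lines and SD bars as in the plot of CPM). The 3 knockdown libraries lie at 6.42% to 9.85% for Igfbp1, above the controls at 2.11% to 3.89%, and the groups overlap for Igfbp2 and Igfbp4.

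The FPKM of Igf1 relative to that of Ghr, the receptor gene of the hormone that induces it, was 3.81, 2.418 and 2.096 in control livers, against 2.24, 2.21 and 2.15 after knockdown. The groups overlapped, and the mean log2 ratio differed by -0.29 (exact permutation test, two-sided, p = 0.4; adjusted over 3 ratios p = 0.6) and by -0.03 without control replicate 1. From counts per transcript length the log2 ratio was 0.60, 0.17 and 0.14 in control livers, against -0.08, -0.08 and -0.004 after knockdown. The mean of these differed by -0.36 and the groups did not overlap (exact permutation test, p = 0.1).

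Over the 6 libraries Ghr and Igf1 were the most alike of the 45 pairs of members, with a root mean square difference of 0.235 between their mean-centred log2 CPM values, followed by Stat5a and Stat5b at 0.264. Cish and Igfbp1 were the least alike, at 1.49. Socs2 lay closest to Igfals, at 0.441. Among 9253 genes whose mean reached 5 CPM, the closest to Ghr were Atl2 (0.0917), Rmdn2 (0.121) and Cyp2c29 (0.126). The closest to Igf1 were Timm9 (0.110), Tdo2 (0.137) and Chpt1 (0.143), those to Socs2 were Arg1 (0.272), Mat1a (0.275) and Ccbl2 (0.282), and those to Igfbp1 were Angptl4 (0.198), Slc25a22 (0.247) and Mycl (0.252). All these values share the same 6 libraries, and the spread they follow includes that of control replicate 1.

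Other genes of receptor and kinase signalling did not pass. Of 19, 18 were tested and 0 were called by edgeR over all genes, with 6 at an unadjusted p under 0.05, 0 called by DESeq2 and 5 by limma-voom. The shares over all genes were 0.864%, 14.5%, 6.78% and 37.0%. The median log2 fold change of the list was 0.09. Prlr, the receptor for prolactin, had the smallest p, at 87.3, 110 and 91.9 CPM in control livers, against 59.4, 75.1 and 58.9 CPM after knockdown, without overlap (log2 fold change -0.58, SE 0.19, edgeR adjusted p = 0.228). Grb10, an adaptor that inhibits insulin and IGF receptors, stood at 2.13 ± 0.104 and 4.05 ± 1.34 CPM (SD, n = 3; edgeR adjusted p = 0.243). Jak2, named for its role and not by the rule, stood at 5.13 CPM in control replicate 1 and at 14.7 to 18.4 CPM in the other libraries (edgeR adjusted p = 0.738). Without control replicate 1, 4 genes of the list were called higher and 3 lower, and with the offset as well 2 and 2. Of all genes 32.6% and 33.2% were called in these fits, so the list's counts lie near or below the background. Prlr was called without control replicate 1 (edgeR adjusted p = 0.00983) and had a log2 fold change of -0.08 with the offset as well (edgeR adjusted p = 0.723).

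Of 16 genes for IGF ligands, receptors, carriers and proteases 9 were tested, since Igf2, Pappa, Pappa2 and Stc1 among others had too few reads, and Stc2 and Igfbpl1 had none. By edgeR 0 were called, with 0 at an unadjusted p under 0.05, 0 by DESeq2 and 3 by limma-voom (0.864%, 14.5%, 6.78% and 37.0% of all genes). Igfbp4, which encodes another IGF carrier, had control values of 1966, 1043 and 1196 CPM and knockdown values of 1088, 1193 and 822 CPM (edgeR adjusted p = 0.564). Igfbp7 stood at 29.2 ± 4.003 and 36.2 ± 1.25 CPM (SD, n = 3; edgeR adjusted p = 0.506). The IGF-1 receptor gene Igf1r, named for its role, did not exceed 1.119 CPM in any library.

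Among 11 other genes known as STAT5 targets in liver, 8 had positive fold changes, and the median log2 fold change was 0.57. By edgeR 0 were called, with 4 at an unadjusted p under 0.05, 2 by DESeq2 and 8 by limma-voom. Over all genes the shares were 0.864%, 14.5%, 6.78% and 37.0%. The list does not separate genes that the hormone raises from those it lowers, so its median is no measure of STAT5 activity. Bcl6 encodes a repressor whose liver expression growth hormone is known to lower. It had control values of 4.47, 3.27 and 3.96 CPM and knockdown values of 13.1, 7.24 and 8.79 CPM, without overlap (log2 fold change 1.31, SE 0.30, edgeR adjusted p = 0.107; 0.00383 without control replicate 1). Egfr, the epidermal growth factor receptor gene, stood at 125, 84.4 and 122 CPM and at 178, 233 and 213 CPM, also without overlap (0.91, SE 0.22, edgeR adjusted p = 0.133, and 0.00332 without control replicate 1). Of this list, without control replicate 1, 6 genes were called higher and 1 lower, where 16.5% and 16.1% of all genes were, and with the offset as well 5 and 2, where 12.0% and 21.2% of all genes were.

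The pulsatile pattern of growth hormone in males and its steadier pattern in females set many sex differences of liver. Of 20 male-biased genes 16 were tested, and the median log2 fold change was 0.63. By edgeR 2 rose and 0 fell, where 0.741% and 0.123% of all genes did. Selenbp2, a selenium-binding protein gene, rose from 76.2 ± 10.1 to 263 ± 50.6 CPM (SD, n = 3; log2 fold change 1.79, SE 0.22, edgeR adjusted p = 0.0280). In the deposited FPKM the groups of Selenbp2 overlapped, with 182, 82.1 and 66.9 in control livers against 193, 191 and 140.0 after knockdown, and limma on log2(FPKM + 1) gave 0.78 (adjusted p = 0.390), so the call was lost. Elovl3, a fatty acid elongase gene, rose from 0.536 ± 0.132 to 3.94 ± 1.599 CPM (2.87, SE 0.44, edgeR adjusted p = 0.0402; 1.48 and 0.0518 by limma on log2(FPKM + 1)). DESeq2 called 4 male-biased genes higher and 1 lower, where 4.62% and 2.16% of all genes were. Of 17 tested without control replicate 1, 5 were called higher and 3 lower, where 16.5% and 16.1% of all genes were, and with the offset as well 6 and 4, where 12.0% and 21.2% of all genes were.

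Of 23 female-biased genes 17 were tested, and 13 had negative fold changes, with a median of -0.68. By edgeR 0 fell and 1 rose, where 0.123% and 0.741% of all genes did. At an unadjusted p under 0.05 there were 8 of the list, against 14.5% of all genes. DESeq2 called 6 lower and 1 higher, where 2.16% and 4.62% of all genes were. The gene that rose by edgeR was Ntrk2, a neurotrophin receptor gene, from 12.3 ± 3.92 to 48.1 ± 5.64 CPM (1.97, SE 0.29, edgeR adjusted p = 0.0375). Hamp2, a hepcidin gene with higher levels in females, had control values of 57.3, 30.5 and 42.7 CPM and knockdown values of 7.30, 16.7 and 6.13 CPM, without overlap (-2.12, SE 0.44, edgeR adjusted p = 0.0845). Cux2, a female-biased repressor gene named after its values were seen, had control values of 112, 6.91 and 0.910 CPM and knockdown values of 2.28, 9.12 and 0.396 CPM, with wide overlap. With control replicate 1 left out, 7 of 17 female-biased genes were called lower and 1 higher, where 16.1% of all genes were called lower and 16.5% higher. The counts were the same with the offset added, where 21.2% of all genes were called lower and 12.0% higher.

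All 6 libraries carried transcripts of the Y chromosome and next to none of Xist, the transcript of the inactive X, which stayed at or below 0.097 CPM. Ddx3y had control values of 9.67, 92.6 and 110 CPM and knockdown values of 28.0, 34.9 and 38.4 CPM, and Eif2s3y, Kdm5d and Uty were likewise lowest in control replicate 1. By edgeR 0 of the 4 tested were called, with 0 at an unadjusted p under 0.05, 0 by DESeq2 and 4 by limma-voom, where 37.0% of all genes were called. Without control replicate 1 all 4 were called lower (median log2 fold change -0.98, where 16.1% of all genes were called lower; Ddx3y edgeR adjusted p = 0.000224), and with the offset as well 2 were. Their part in the sex-biased lists was not tested.

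**Figure D5:**
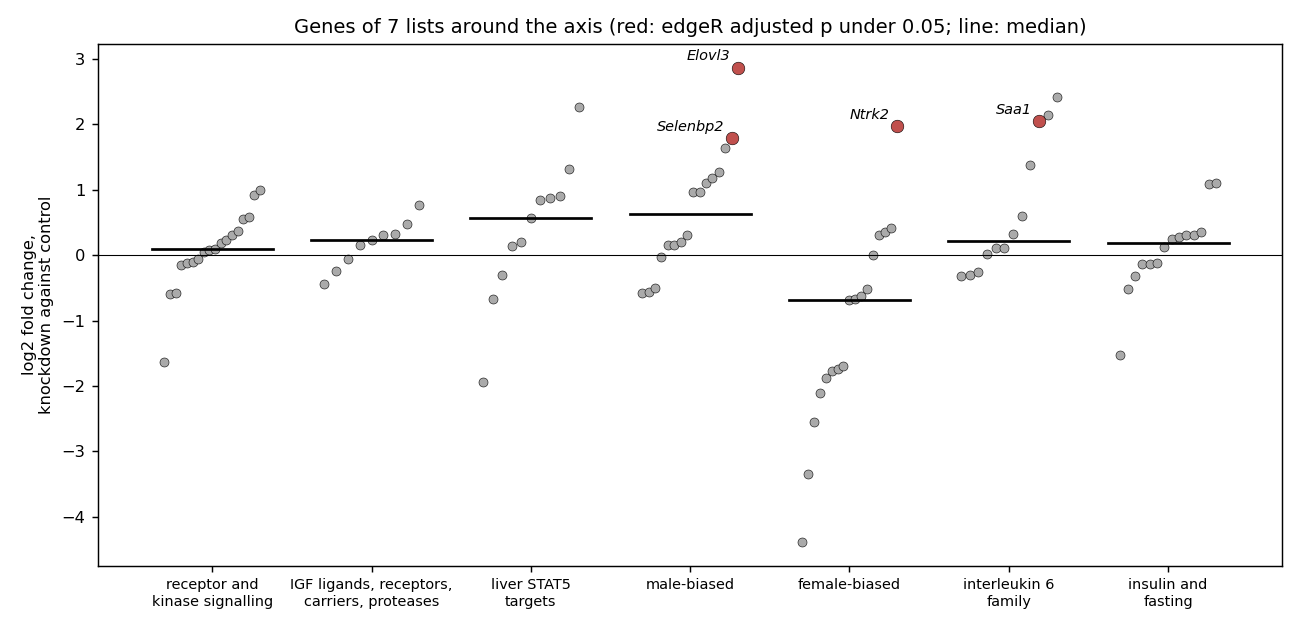
edgeR log2 fold changes of each tested gene in 7 lists of the axis and its neighbours, with all 6 libraries. Each point is a gene, lines are list medians, and red points are the 4 genes with an adjusted p under 0.05; the male-biased median lies at 0.63 and the female-biased median at -0.68.

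The inputs other than growth hormone that act on Socs3 and Igfbp1 were read from a list for each. Of 14 interleukin 6 family ligands, receptors and response genes 12 were tested, with a list median of 0.22. By edgeR 1 was called, where 0.864% of all genes were. That gene, Saa1, encodes an acute phase protein. Saa1 rose from 28.0 ± 10.2 to 116 ± 19.7 CPM (SD, n = 3; log2 fold change 2.05, SE 0.32, edgeR adjusted p = 0.0408). Its neighbour Saa2 had means of 12.4 ± 6.10 and 55.0 ± 12.1 CPM (SD, n = 3; edgeR adjusted p = 0.0720). Of the 12 genes 4 had an unadjusted p under 0.05, 2 were called by DESeq2, both higher, and 5 by limma-voom. Over all genes these shares were 14.5%, 6.78% and 37.0%. Without control replicate 1, 5 were called higher and 0 lower, where 16.5% and 16.1% of all genes were. With the offset as well 4 and 0 were, where 12.0% and 21.2% of all genes were. Of 14 insulin and fasting responsive genes 0 were called, with 1 at an unadjusted p under 0.05, 1 by DESeq2 and 4 by limma-voom. The shares of all genes were 0.864%, 14.5%, 6.78% and 37.0%. Srebf1, the gene of a lipogenic transcription factor, averaged 249.6 ± 67.0 and 175 ± 39.8 CPM (SD, n = 3; edgeR adjusted p = 0.450). The calls of Saa1, Selenbp2, Elovl3 and Ntrk2 were each lost when any library other than control replicate 1 was left out.

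Markers of other liver cells were read beside these values. All 7 recruited macrophage markers and all 8 stellate cell and fibroblast markers had positive fold changes (medians 0.54 and 0.80). By edgeR 0 and 1 of them rose. The one that rose, the smooth muscle actin gene Acta2, had 1, 1 and 0 reads in control livers, against 52, 36 and 47 reads after knockdown (edgeR adjusted p = 0.0282); its call was lost when any library other than control replicate 1 was left out. For the macrophage list 2 had an unadjusted p under 0.05, 1 was called by DESeq2 and 6 by limma-voom, and for the stellate list 4, 4 and 5. Over all genes these shares were 14.5%, 6.78% and 37.0%, and edgeR called 0.864%. The 7 Kupffer cell markers also all had positive fold changes (median 0.39), with 0 called by edgeR, 3 at an unadjusted p under 0.05, 0 by DESeq2 and 5 by limma-voom. Without control replicate 1 the medians of the macrophage, stellate and Kupffer lists were 1.365, 1.172 and 0.53. In that fit edgeR called 6, 5 and 4 of them higher and 0 lower, where 16.5% and 16.1% of all genes were. With the offset as well 6, 5 and 3 were called higher, where 12.0% of all genes were. The 7 hepatocyte markers all had negative fold changes, with 0 called by edgeR, 2 at an unadjusted p under 0.05, 2 called lower by DESeq2 and 3 by limma-voom. The macrophage markers summed to 281 CPM in control replicate 1, to 124.5 and 129 CPM in control replicates 2 and 3, and to 211 to 306 CPM after knockdown, and the stellate markers to 188 to 211 CPM in controls and 301 to 416 CPM in knockdown. The 7 hepatocyte markers summed to 108001 to 135081 CPM in controls and 100967 to 112208 CPM in knockdown, with a median log2 fold change of -0.52 with all libraries and -0.05 without control replicate 1. Of 6 cholangiocyte markers 3 were tested, and all 3 had positive fold changes (median 0.41, and 0.79 without control replicate 1). Of these 0 were called by edgeR, 0 had an unadjusted p under 0.05, 0 were called by DESeq2 and 2 by limma-voom. The 6 sinusoidal endothelial markers had a median of -0.04, and lymphocyte and neutrophil markers summed to 0.086 to 0.696 CPM per library. The part of other cell types in the values of the 10 members was not tested.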

How the data were processed

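The authors deposited raw read counts per gene for each of 6 liver libraries and an FPKM table for all of them. Per the submitters' processing notes, the tools were FastQC, Trim Galore, HISAT2 (2.10), HTSeq and Cufflinks (2.2.1) and the build GRCm38 (mm10), and their roles are not stated. No source used here says if strand was used in counting. Where Igf1, Cish and Stat5a overlap genes on the other strand, the origin of reads thus cannot be told. The overlapping genes held at most 115 and 20 reads, against 64872 and 3115 for Igf1 and Cish. Stat5a overlaps Stat3 by 72 bases, and Stat3 had 28812 reads against 2704 for Stat5a. Lines that name no gene were left out (no feature 2.48% to 5.66%, ambiguous 4.69% to 6.87%).

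After filterByExpr and TMM scaling, groups were compared by edgeR's quasi-likelihood method with group as the only term (edgeR 4.0.16, R 4.3.3). P-values were adjusted by Benjamini-Hochberg over all genes tested, and an adjusted p under 0.05 was called. The SE given for edgeR was derived from the test, as the absolute log2 fold change divided by the square root of its F statistic. The procedure was tested on simulated counts, drawn independently around a common mean for each gene. These counts held no GC trend and no outlying library, so errors of the fits under such features were not simulated. With all 6 libraries the procedure recovered 8% of simulated 2-fold and 70% of simulated 4-fold changes. Without control replicate 1 it recovered 72% and 98%. A gene not called with all libraries may thus still differ 2-fold. Alternatives were DESeq2 1.42.0, limma-voom (limma 3.58.1), limma on log2(FPKM + 1) and log2(FPKM + 0.1), other scalings and filters, a replicate block, a loess offset (span 0.3) for GC content and length of GENCODE M21 transcripts, and each library left out. The offset without control replicate 1 was added after seeing the data. Exact permutation tests (scipy 1.17.1) served for ratios.

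The members and lists were chosen with earlier results of these data known. Named genes are the members, Atoh8, the sex chromosome transcripts, called markers, up to 4 called genes of each list (or the 2 with the smallest p where fewer than 2 were called) and the 3 genes most like Ghr, Socs2, Igf1 and Igfbp1. Other names are marked as such. Some genes that the rule names are not reported here. A floor of 3 reads covers counting error only.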

Additional observations from a re-analysis of the deposited data

How the results depend on the processing

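Of the 10 members 0 were called with all libraries. With no filter on low counts 1 was called (Cish), with DESeq2 3, with the GC and length offset 3, with limma-voom 7 and with control replicate 1 left out and the offset applied 7. With single libraries left out the count ran from 0 to 7, and 7 came from leaving out control replicate 1. Over all genes 119 were called, against 247 with no filter, 934 by DESeq2, 5088 by limma-voom, 652 with the offset and 4728 with the offset and control replicate 1 left out. Leaving out single libraries gave 0 to 4632, the highest without control replicate 1. Of the 97 tested genes of the 7 lists 4 were called, against 8 with no filter, 17 by DESeq2, 40 by limma-voom, 9 with the offset, 40 with the offset and control replicate 1 left out, 2 on log2(FPKM + 0.1) and 0 to 42 with single libraries left out. The offset moved the median log2 fold change of all genes by -0.12. The share of higher calls was 102 of 119 with all libraries, 317 of 652 with the offset, 2348 of 4632 without control replicate 1 and 1709 of 4728 with both. Stat5a had -0.16 with the offset, -0.32 with the offset and control replicate 1 left out and -0.057 to 0.24 (-0.031 without knockdown replicate 1) with single libraries left out. Stat5b had 0.17 by limma-voom and -0.24 to 0.17 with single libraries left out, Igfbp2 -0.99 to 0.012, and Kdm5d 0.0042 on log2(FPKM + 0.1) and -0.54 to 0.10. The cause of these changes was not tested. Cish, Igf1, Igfals, Socs2 and Ghr kept negative and Igfbp1 and Socs3 positive fold changes in all 18 settings. The log2 fold change of Socs3 ran from 0.0015 to 1.03, so its sign alone says little. The settings share the same libraries and are not independent.

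With the replicate number as a block 0 members, 35 genes (33 higher, 2 lower) and 1 list gene were called, and the 3 ratios had the same differences. That list gene was lower. Under the block the edgeR adjusted p was 0.0589 for Selenbp2, 0.0686 for Elovl3, 0.0706 for Ntrk2, 0.0697 for Saa1 and 0.0686 for Acta2, so none of these was called. Same-numbered libraries shared deviations with correlations of 0.254, -0.082 and 0.290, and not every library lay closest to its own number, so no pairing was assumed. Depth was similar in all libraries (31912058 to 37969644 gene reads), and members with the fewest reads, such as Socs2 (167 in knockdown replicate 1), carry the largest counting error.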
